A study of Mus musculus with 12 samples.

Results

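The 47 genes described here act in mitosis and in the G2 phase before it. They were given as a fixed list of symbols, and all 47 were found among the 37287 gene IDs of each of 2 gene count tables. All 47 also passed the filter on low counts, with a lowest level of 6.33 CPM (counts scaled to the library's total) in any library of the first table. The cells were mouse embryonic fibroblasts, labelled with the genotype MyoD-/-; Myf5-/- for both muscle-determining factors in every library, controls included. Reads of both genes were still counted in the controls. Myod1 had 5.31 CPM without virus and 5.43 to 5.99 CPM with GFP, and Myf5 had 24.4 CPM and 17.2 to 20.8 CPM. In the first table, 5 libraries came from cells that received a lentivirus carrying GFP, 4 of them at a multiplicity of infection (MOI, infectious particles offered per cell) of 15, 30, 60 and 120 and 1 at a dose labelled 1x. The same table holds 2 libraries with lenti-MyoD and 2 with lenti-Myf5, in each case 1 at 1x and 1 at 2x, and 1 library of untransduced cells. The second table holds 1 library with 1x lenti-Chimera, whose makeup the labels do not give, and 1 with 1x lenti-MyoD from a second virus batch that was balanced against the Chimera. The protocol, which is the same text for all 12 libraries, gives infection in medium with polybrene, a change after 24 h to a differentiation medium, and harvest 20 h later. Whether the untransduced cells also received polybrene is not said, nor is the MOI to which 1x corresponds. Nothing in the labels says that libraries of a group came from separate cultures, so the p-values below measure only the spread between these libraries, which includes differences in dose.

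A cell enters mitosis when cyclin B and Cdk1 form an active kinase, helped by Plk1 and the Aurora kinases. Condensin then folds the chromosomes, kinesins and kinetochore proteins attach them to the spindle, and the checkpoint proteins hold back the anaphase-promoting complex until attachment is complete. That complex, with Cdc20 and the ubiquitin-conjugating enzyme Ube2c, marks cyclin B and securin (Pttg1) for destruction, which frees separase (Espl1) to part the sister chromatids. Most of these transcripts rise together late in the cell cycle through the transcription factors Foxm1 and B-Myb with the MuvB complex, and they fall when cells leave the cycle, as myoblasts do when they become muscle fibres. In RNA from whole cultures, fewer dividing cells and less of these RNAs per dividing cell cannot be told apart.

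The promoters of many members share short motifs. The sequences below run from 120 bases before to 30 bases after the annotated RefSeq transcript start (mouse build GRCm38.p6), 5′ to 3′ on the gene's strand, and are shown because these genes stand for the steps just described and for the exception in the results, Ube2c. Capitals mark the CCAAT box, which reads ATTGG where it lies on the other strand, and the cell-cycle genes homology region, abbreviated CHR, to which MuvB is known to bind. The CHR was searched on both strands in 3 forms. The first is TTTGAA, which reads TTCAAA from the other side, the second is TTTAAA and the third is TTCGAA.
Ccnb1, chr13:100786457-100786606, minus strand: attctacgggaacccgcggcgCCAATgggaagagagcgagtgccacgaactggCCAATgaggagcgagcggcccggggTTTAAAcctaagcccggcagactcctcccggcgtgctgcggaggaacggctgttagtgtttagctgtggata
Ccnb2, chr9:70421525-70421674, minus strand: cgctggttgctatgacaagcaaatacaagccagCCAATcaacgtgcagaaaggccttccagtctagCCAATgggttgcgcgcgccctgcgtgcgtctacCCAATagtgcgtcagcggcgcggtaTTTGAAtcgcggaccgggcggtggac
Cdk1, chr10:69352883-69353032, minus strand: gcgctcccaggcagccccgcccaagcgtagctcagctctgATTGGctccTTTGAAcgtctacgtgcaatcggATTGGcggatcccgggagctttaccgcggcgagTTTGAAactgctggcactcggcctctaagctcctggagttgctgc
Plk1, chr7:122159315-122159464, plus strand: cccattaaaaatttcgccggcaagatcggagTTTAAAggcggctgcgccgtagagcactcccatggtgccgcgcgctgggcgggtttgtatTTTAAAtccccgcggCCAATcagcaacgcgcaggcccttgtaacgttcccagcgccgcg
Cdc20, chr4:118437314-118437463, minus strand: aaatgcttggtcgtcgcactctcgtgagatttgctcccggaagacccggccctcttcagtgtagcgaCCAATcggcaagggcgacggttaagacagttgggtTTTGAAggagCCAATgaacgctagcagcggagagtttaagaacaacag
Bub1, chr2:127831830-127831979, minus strand: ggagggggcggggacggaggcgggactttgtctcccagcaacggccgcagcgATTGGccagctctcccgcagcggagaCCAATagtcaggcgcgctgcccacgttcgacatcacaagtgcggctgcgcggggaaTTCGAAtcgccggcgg
Ube2c, chr2:164769809-164769958, plus strand: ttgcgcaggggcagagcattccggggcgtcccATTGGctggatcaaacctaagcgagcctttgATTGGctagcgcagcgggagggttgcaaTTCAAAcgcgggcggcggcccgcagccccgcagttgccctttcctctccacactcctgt

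Each of these 7 windows held at least 1 CCAAT box and at least 1 CHR form. Ccnb2, the second B-type cyclin, had 3 CCAAT boxes upstream of 1 TTTGAA. Cdk1 had 2 CCAAT boxes, both on the other strand, and 2 copies of TTTGAA. Over the full RefSeq windows of 300 bases, from 250 before to 50 after the start, 39 of the 47 members had an entry. TTTGAA on either strand was present in 30 of these 39 (76.9%), against 20.2% of all 27025 genes with an entry and 18.5% of the 17492 protein-coding ones. A CCAAT box was present in 28 of 39 (71.8%), against 41.1% of all genes, and CCAAT together with TTTGAA in 25 of 39 (64.1%), against 7.97%. Any of the 3 CHR forms was found in 34 of 39 members (87.2%) and 31.9% of all genes. The 5 members with none of the 3 forms in this window were Mad2l1, Ncaph, Nuf2, Nusap1 and Pttg1. The motifs were not particular to the members. In a list of 66 further mitosis genes, of which 52 had an entry, TTTGAA was present in 27 (51.9%). Any CHR form was present in 37 of these 52 (71.2%) and CCAAT in 36 (69.2%). In a list of 40 S-phase genes, of which 32 had an entry, CCAAT was about as common (21 of 32, 65.6%) while TTTGAA was present in 4 (12.5%). Mean GC content was 59.5% in the members' windows and 53.8% over all genes, so the letters are not equally likely in both. A match describes the sequence and is not a measured binding site.

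Read depth ran from 17.9 to 22.4 M (mega) counts in the 4 MOI libraries, from 68.3 to 81.5 M in the other 6 libraries of the first table and from 23.7 to 25.1 M in the second. The MOI and 1x GFP libraries therefore differed in depth as well as in virus dose, and the part of depth in their differences was not tested. All 10 fibroblast markers, among them Col1a1 and Vim, stood at 1 CPM or more in every library. Their summed level was 20993 CPM without virus, 20219 to 21662 with GFP, 14728 to 17678 with Myf5 and 11352 to 15545 with MyoD. The summed level of 9 skeletal muscle markers was 1.44 CPM without virus, 2.52 to 3.72 with GFP, 128 to 283 with Myf5 and 1023 to 2625 with MyoD. Of 5 macrophage genes, Adgre1 was at 0 in every library, and the summed level ranged from 11.1 to 17.7 CPM. Endothelial and epithelial markers did not exceed 2.49 and 0.322 CPM in sum. The part of the fibroblast and muscle marker levels in the differences of MyoD and Myf5 below was not tested.

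The 47 genes together made up 4703 CPM in the library without virus and between 1584 and 2306 CPM in the 9 transduced libraries of the first table. The sum was 2084, 1980, 1914 and 1711 CPM with GFP at an MOI of 15, 30, 60 and 120, and 2207 CPM with 1x GFP, a GFP mean of 1979 ± 187 CPM (SD, n = 5). It was 2094 and 2306 CPM with 1x and 2x Myf5 and 1980 and 1584 CPM with 1x and 2x MyoD. Both MyoD sums lay below both Myf5 sums, each factor had 1 library within the GFP range, and the untransduced library stood 2.38-fold above the GFP mean. Scaling by TMM instead of total counts left the same picture, with 4785 CPM without virus and 1641 to 2332 CPM elsewhere.

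**Figure D1:**
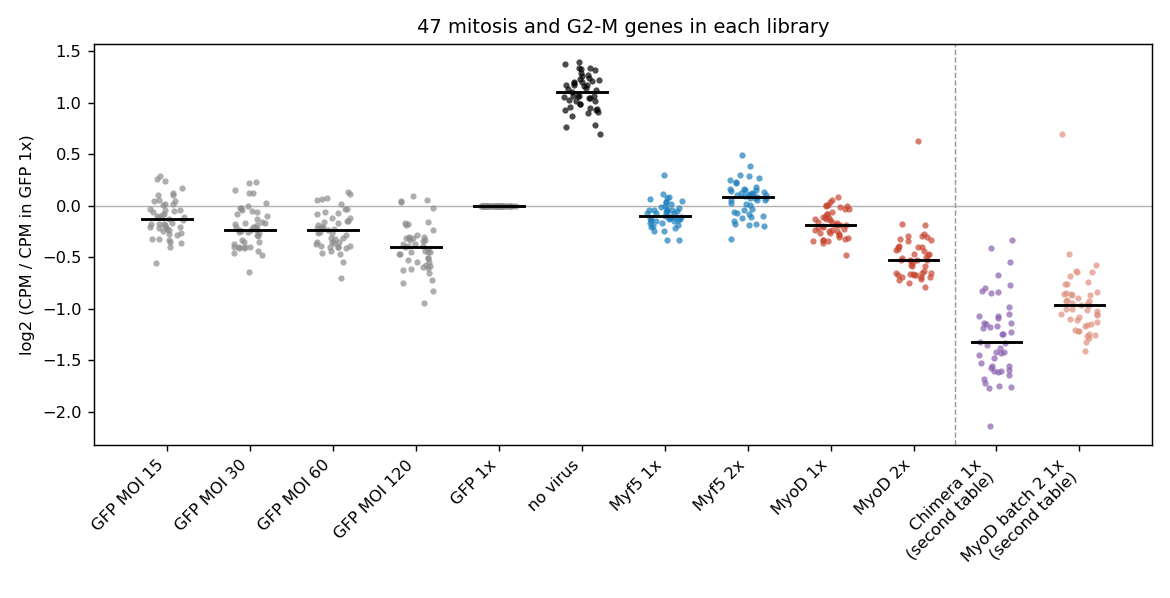
Each point is 1 of the 47 genes, plotted as the log2 ratio of its CPM in that library to its CPM in the 1x GFP library, with the median as a black bar. Every gene lies above 0 without virus, the medians of 2x MyoD and MOI 120 lie below 0, and Ube2c is the single high point with 2x MyoD and with second-batch MyoD. The dashed line separates the second table, whose totals leave out mitochondrial genes.

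In untransduced cells, every member took a larger share of the RNA than in GFP-transduced cells. All 47 genes were higher (edgeR's quasi-likelihood test with Benjamini-Hochberg adjustment, adjusted p under 0.05), against 5.83% of the 13825 genes tested. The median log2 difference was 1.35, a 2.55-fold higher level, against a median of -0.01 over all genes. Each of the 47 also stood above all 9 transduced libraries, which held for 16.5% of all genes. This comparison rests on 1 untransduced library, whose spread was assumed to be like that of the other groups.

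Among the cyclins and Cdk1, the kinase Cdk1 had 52.4, 52.1, 51.9 and 46.8 CPM along the MOI series, 61.2 with 1x GFP and 125 without virus, a log2 difference of 1.28 ± 0.13 (SE). Cyclin B1 (Ccnb1) had 40.7, 40.7, 40.2 and 35.7 CPM, then 51.4, and 107 without virus. For both genes 1x GFP was the highest of the 5 GFP libraries, and the untransduced value was more than 2 times that of 1x GFP. Cyclin A2 (Ccna2), which acts with Cdk1 and Cdk2 from S phase into G2, rose by 1.51 ± 0.17 and cyclin B2 (Ccnb2) by 1.05 ± 0.16. The mitotic kinases rose by 1.35 to 1.93. Pbk, a kinase active in dividing cells, had the largest log2 difference of all 47, 1.93 ± 0.28, from 6.33 to 12.2 CPM with GFP to 31.6 CPM without virus. Plk1, which drives mitotic entry and spindle assembly, went from 17.9 to 27.2 CPM with GFP to 64.2 CPM.

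Bub1, a checkpoint kinase at kinetochores, was among the 4 members with the smallest p. Its level was 25.4, 25.5, 23.2 and 22.1 CPM along the MOI series, 28.7 with 1x GFP and 72.6 without virus, a log2 difference of 1.58 ± 0.16 (adjusted p = 0.00165 by edgeR). Bub1b, its relative in the mitotic checkpoint complex and the most abundant of the checkpoint group, stood at 58.8, 55.9, 53.5, 46.8 and 58.2 CPM with GFP and at 121 CPM without virus. No GFP library of either gene came near the untransduced one. The securin gene Pttg1 had the smallest difference of the 47, 0.63 ± 0.13, with 23.8 to 27.9 CPM in GFP and 38.5 CPM without virus. Its partner separase (Espl1) differed by 1.49 ± 0.18.

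In the chromosomal passenger complex, which corrects wrong attachments, the kinase Aurkb had a log2 difference of 1.66 ± 0.23 and its scaffold Incenp one of 1.36 ± 0.16. Incenp stood at 33.1, 31.4, 29.5, 30.2 and 40.0 CPM with GFP and at 82.3 CPM without virus. All 6 kinesins were higher by 1.11 to 1.54. Kif15, which keeps the spindle bipolar together with Kif11, had 21.1, 17.1, 19.2 and 17.2 CPM along the MOI series, 20.3 with 1x GFP and 50.5 without virus, a log2 difference of 1.46 ± 0.13. Kif20a, a kinesin of the central spindle and the most abundant of the 6, went from 104 to 131 CPM with GFP to 256 CPM.

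Of the condensin genes, Smc2 had 46.6, 43.6, 43.9 and 40.5 CPM along the MOI series, 46.0 with 1x GFP and 109.7 without virus, a log2 difference of 1.36 ± 0.11. Smc4, the other ATPase of the same ring, differed by 0.72 ± 0.09, with 97.2 to 109.5 CPM in GFP and 168 CPM without virus. Both differences were larger than the spread among the GFP libraries, and that of Smc4 was the second smallest of the 47. Ckap2, a spindle microtubule protein, had 57.0, 55.7, 59.6, 59.9 and 61.0 CPM with GFP and 118 CPM without virus, a log2 difference of 1.05 ± 0.10. The 3 cytokinesis genes rose by 1.43 to 1.74, with Anln, which links the contractile ring to the membrane, at the top. Anln had 82.6, 74.0, 74.5, 62.7 and 103 CPM with GFP and 258 CPM without virus. Mki67, which coats mitotic chromosomes, and Top2a, which untangles them, differed by 1.37 ± 0.14 and 1.38 ± 0.18. Foxm1, the transcription factor of the group, had 37.7, 37.8, 39.6, 34.8 and 48.1 CPM with GFP and 105 CPM without virus, a log2 difference of 1.44 ± 0.16.

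Set against the 1x GFP library alone, 43 of the 47 genes were higher without virus (3.37% of all genes were), with a median log2 difference of 1.10 and a range of 0.70 to 1.39. The 4 that missed the threshold were Ube2c (0.76 ± 0.28, adjusted p = 0.17), Pttg1 (0.70 ± 0.17, adjusted p = 0.0528), Kif2c (0.92 ± 0.23, adjusted p = 0.0559) and Nusap1 (0.93 ± 0.24, adjusted p = 0.0631), all by edgeR's quasi-likelihood test. These 2 comparisons share the untransduced library.

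**Figure D2:**
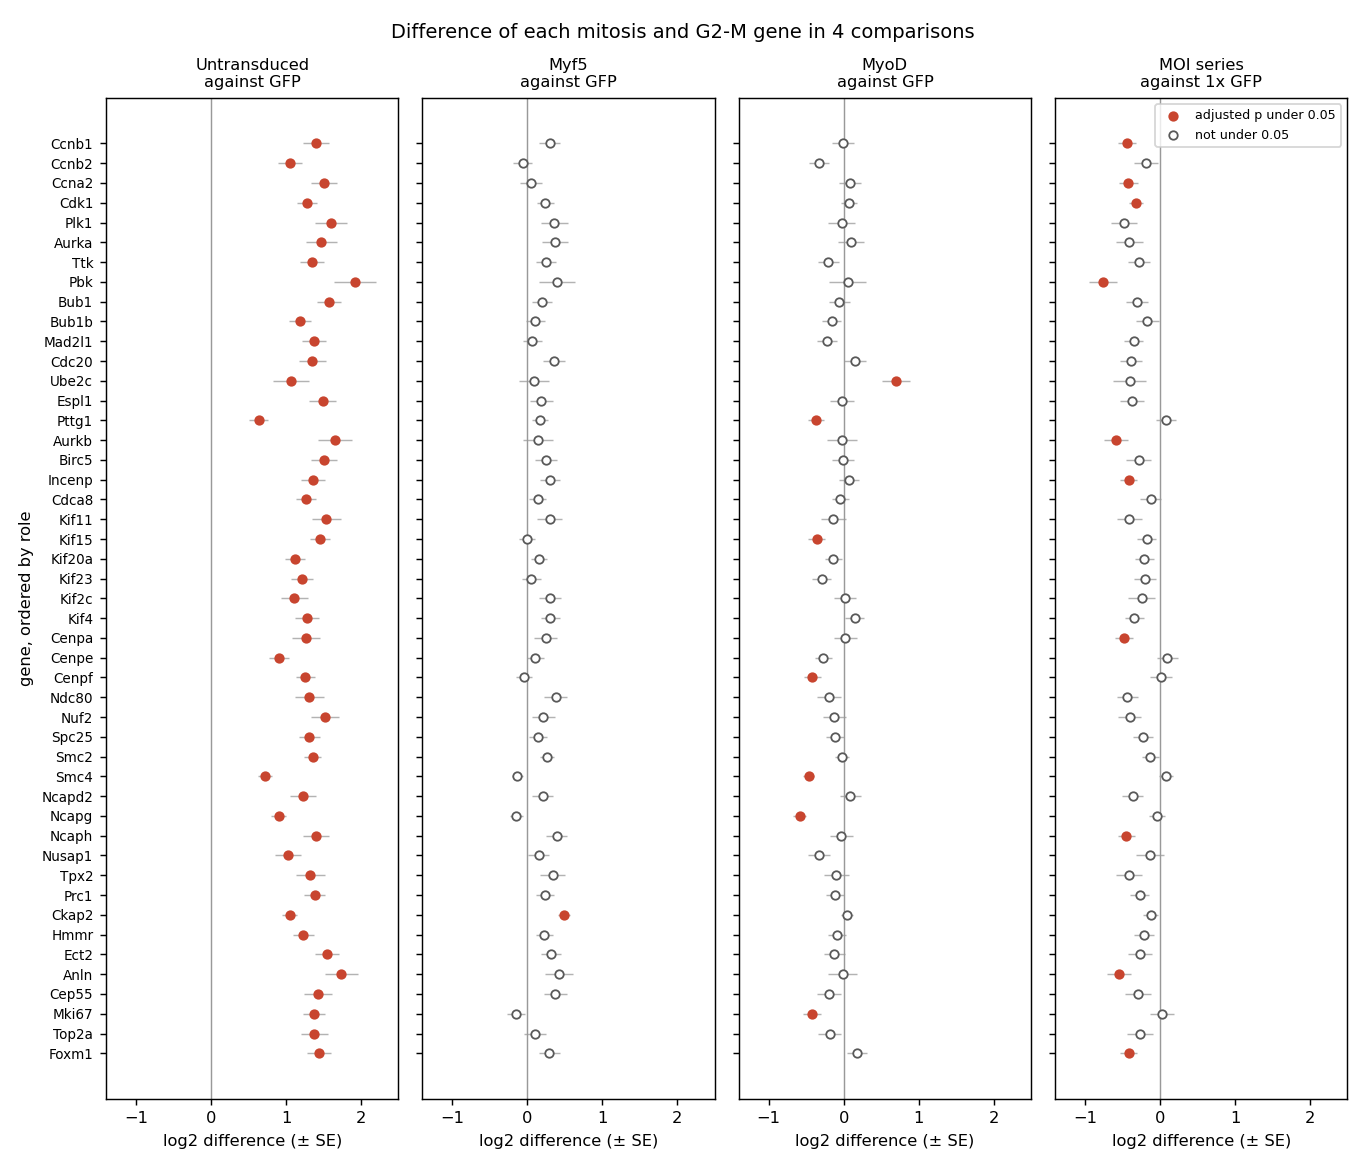
For each of the 47 genes, in order of role, the panels give the log2 difference ± SE from edgeR in 4 comparisons, with filled points at an adjusted p under 0.05. All points are filled without virus, 1 with Myf5, 7 with MyoD and 10 for the MOI series against 1x GFP.

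Along the GFP series, 20 of the 47 members fell as the MOI rose. A slope on log2 MOI over the 4 MOI libraries was negative for 45 of the 47 genes and passed the test for those 20 (edgeR, adjusted p under 0.05), against 3.42% of 13383 genes tested. The median slope was -0.10 per doubling of MOI, against -0.0002 over all genes, of which 49.8% had a positive slope. For 20 of 47 members CPM dropped at each of the 3 steps, which held for 9.27% of all genes. The median ratio of MOI 120 to MOI 15 was 0.816, with a range of 0.669 for Ube2c to 1.05 for Ckap2.

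Top2a had 119.7, 111, 106 and 89.2 CPM at an MOI of 15, 30, 60 and 120, a slope of -0.13 ± 0.02 (edgeR, adjusted p = 0.000506). Mki67 had 132, 122, 118 and 99.8 CPM, a slope of -0.12 ± 0.02 (edgeR, adjusted p = 0.000894). Ccnb2 had 57.4, 54.1, 50.3 and 41.0 CPM, a slope of -0.15 ± 0.03 (edgeR, adjusted p = 0.00114). All 3 dropped at every step, with the largest drop between MOI 60 and 120. Cenpf, a kinetochore protein, had 53.6, 48.7, 45.2 and 40.0 CPM and a slope of -0.14 ± 0.02 (edgeR, adjusted p = 0.00153). Of the 6 kinesins, 5 were called, with Kif15 (-0.07 ± 0.04) as the exception. None of the 4 mitotic kinases was called. Foxm1 had a slope of -0.02 ± 0.03 and Cdk1 one of -0.05 ± 0.02, neither past the test. Ckap2 (0.03 ± 0.02) and Ncapg (0.02 ± 0.03) were the 2 genes without a negative slope.

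The calls along the MOI series depended on the highest dose. Without the MOI 120 library 0 members were called, at a median slope of -0.07 against -0.10 with all 4 libraries. Without the MOI 15 library 12 were called. The share of all genes called in these smaller fits was not taken. DESeq2 called 7 members lower in place of 20, and 198 of all genes in place of 458.

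**Figure D3:**
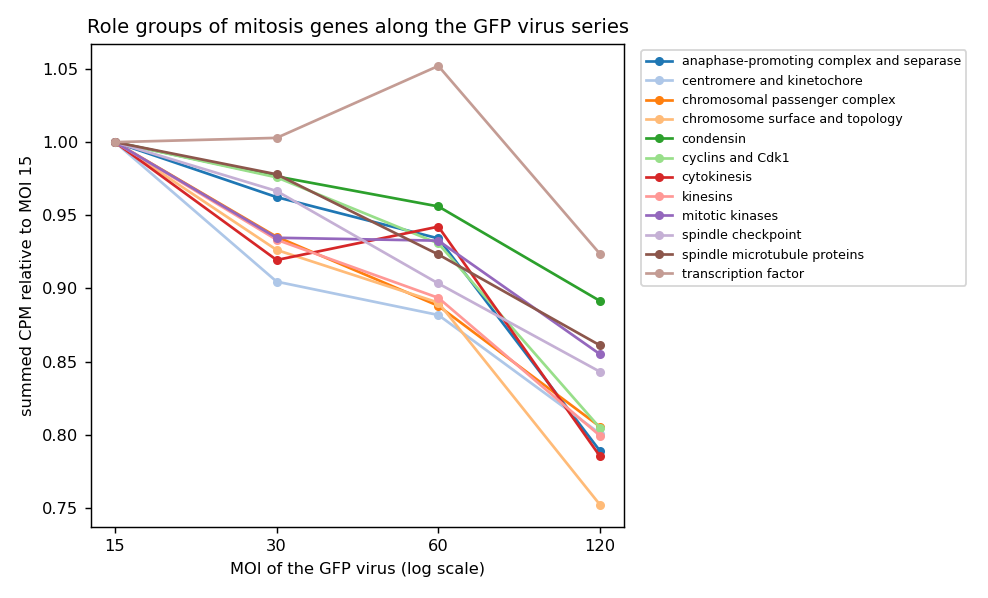
Summed CPM of each of the 12 role groups along the GFP MOI series (log axis), relative to MOI 15. The summed levels of 11 groups end between 0.752 and 0.891 at MOI 120, and the transcription factor group, which is Foxm1 alone, ends at 0.924 after 1.05 at MOI 60.

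The 1x GFP library stood above the MOI series for many members. Against it, 10 of 47 genes were lower in the 4 MOI libraries (12.2% of all genes were), with a median log2 difference of -0.30 and 42 of 47 negative. They were the 3 entry genes Ccnb1 (-0.44 ± 0.12), Ccna2 (-0.42 ± 0.13) and Cdk1 (-0.32 ± 0.09), the kinases Pbk (-0.76 ± 0.18) and Aurkb (-0.59 ± 0.16), Incenp, the centromeric histone Cenpa (-0.48 ± 0.12), the condensin subunit Ncaph (-0.45 ± 0.12), Anln (-0.55 ± 0.16) and Foxm1 (-0.41 ± 0.11). Pbk had 8.31, 7.84, 7.51 and 6.33 CPM along the series and 12.2 CPM with 1x GFP. Cenpa had 33.8, 30.5, 31.9 and 26.3 CPM against 41.3 CPM, and Ncaph had 18.3, 17.3, 18.0 and 16.2 CPM against 22.9 CPM. In each case all 4 MOI values lay below the 1x value. Over all genes, 49.6% had a positive difference of the MOI series from 1x GFP. The count of 10 became 2, 3 and 5 when the MOI 30, 60 or 120 library was left out.

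With MyoD, few of the members differed from GFP: 6 genes were lower and 1 was higher (edgeR, adjusted p under 0.05). Over all genes 20.9% were lower and 21.4% higher, so the share of members that changed was below that of genes in general. Of the 47 differences, 34 were negative and 13 positive, where 47.2% of all genes were positive. The median log2 difference of the 47 was -0.09, against -0.03 over all genes. Its sign rested on the 2x library: the median was 0.08 without 2x MyoD and -0.26 without 1x MyoD. Against the 4 MOI libraries alone it was -0.02, with 22 members positive and 25 negative, where 48.6% of all genes were positive.

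The strongest fall was that of the condensin subunit Ncapg. It had 35.8, 34.4, 37.0 and 36.4 CPM along the MOI series, 35.6 with 1x GFP, and 25.5 and 20.7 CPM with 1x and 2x MyoD, a log2 difference of -0.59 ± 0.08 (edgeR, adjusted p = 0.00106). Smc4 of the same complex had 109.5, 108, 105, 104 and 97.2 CPM with GFP and 79.7 and 66.5 CPM with MyoD, a difference of -0.47 ± 0.08 (edgeR, adjusted p = 0.00193). Neither gene's MyoD values overlapped with GFP. The other 3 condensin genes did not pass the test, with Smc2 at 46.2 and 38.1 CPM, Ncapd2 at 109 and 84.5 CPM and Ncaph at 19.4 and 15.9 CPM with 1x and 2x MyoD.

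Cenpf had 53.6, 48.7, 45.2, 40.0 and 44.8 CPM with GFP and 37.0 and 30.0 CPM with MyoD, a difference of -0.42 ± 0.11 (edgeR, adjusted p = 0.0164). Pttg1 had 25.5, 27.9, 26.1, 24.6 and 23.8 CPM with GFP and 20.9 and 17.1 CPM with MyoD, a difference of -0.37 ± 0.11 (edgeR, adjusted p = 0.0206). Mki67, with 96.4 and 71.9 CPM, and Kif15, with 15.8 and 12.9 CPM, were the other 2 that fell, by -0.42 ± 0.12 and -0.36 ± 0.11. Both MyoD values lay below all 5 GFP values for 7 of the 47 members, against 28.2% of all genes. Cdk1 (57.7 and 50.01 CPM with 1x and 2x MyoD, log2 difference 0.07 ± 0.11) and Foxm1 (47.9 and 38.9 CPM, 0.18 ± 0.14) lay within the GFP range.

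The choice of GFP control mattered. Of all genes, 49.0% had a positive difference of MyoD from 1x GFP alone. Against 1x GFP alone, 46 of 47 differences were negative, with a median of -0.33, and 5 genes were lower: Ncapg, Smc4, Ndc80, Kif15 and Mad2l1, while 15.4% of all genes were. With all GFP libraries as control, the count of lower members also changed when either MyoD library was left out. The share of all genes called in those fits was not taken.

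Ube2c was the member that rose with MyoD. It had 33.2, 30.6, 31.0, 22.2 and 37.2 CPM with GFP, 32.3 and 32.4 CPM with 1x and 2x Myf5, 39.5 and 57.3 CPM with 1x and 2x MyoD, and 63.0 CPM without virus. The log2 difference of MyoD from GFP was 0.70 ± 0.19 (edgeR, adjusted p = 0.0184), and against 1x GFP alone it was 0.39 with an adjusted p of 0.261. In the GENCODE vM21 annotation, 1662 bases of Ube2c overlap Tnnc2, which lies on the opposite strand and encodes troponin C of fast skeletal muscle. Whether the authors counted by strand is not stated in the labels, so reads of the 2 genes cannot be told apart. Tnnc2 had 0.168 to 0.356 CPM with GFP, 0.330 without virus, 0.527 and 0.876 with Myf5, and 9.27 and 32.8 with 1x and 2x MyoD. Cdc20, which works with Ube2c on the same complex, had 58.1 and 45.7 CPM with 1x and 2x MyoD, within or near its range of 38.5 to 57.8 CPM with GFP. The part of Tnnc2 reads in the Ube2c counts was not tested. Of the other members, Ccna2, Cdc20, Cdca8, Kif20a, Kif4, Ncapg, Nusap1 and Prc1 also overlap a protein-coding gene on the opposite strand. These overlaps run from 53 bases for Cdc20 to 21810 for Prc1, so the uncertainty differs between them. Foxm1 overlaps the protein-coding genes Tex52 (691 bases) and Gm44596 (644 bases) on its own strand, and the part of their reads was not tested.

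**Figure D4:**
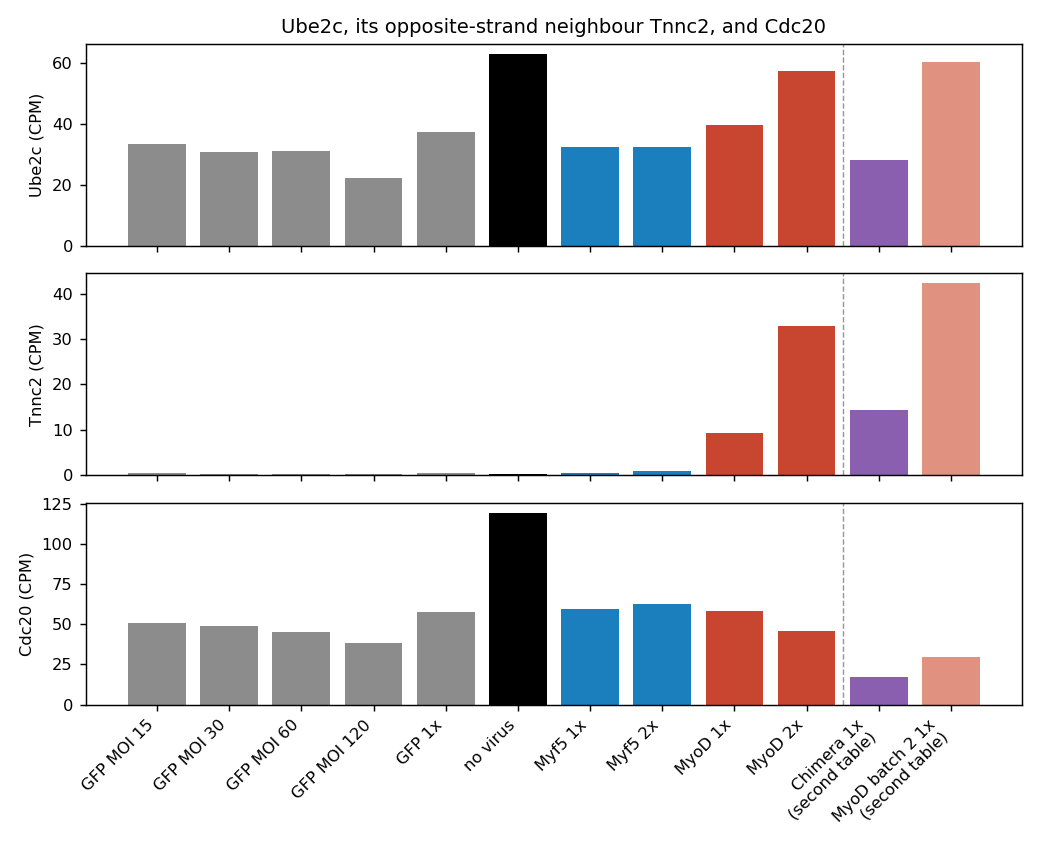
Bars give CPM of Ube2c, of its opposite-strand neighbour Tnnc2 and of Cdc20 in each of the 12 libraries, with a separate axis from 0 for each gene. Ube2c and Tnnc2 are both high with 2x MyoD and second-batch MyoD, and Cdc20 is highest without virus.

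With Myf5, 1 member was higher than with GFP and 0 were lower (edgeR, adjusted p under 0.05). Ckap2 had 57.0, 55.7, 59.6, 59.9 and 61.0 CPM with GFP and 74.8 and 86.0 CPM with 1x and 2x Myf5, so the groups did not overlap. Its log2 difference was 0.49 ± 0.08 (edgeR, adjusted p = 0.0134). Higher levels were called for 3.81% of all genes and lower levels for 316 of 13825, so 1 of 47 members is not above the share of genes in general. The median difference of the 47 was 0.23, with 41 positive, where 49.5% of all genes were positive. By edgeR 9 members had an unadjusted p under 0.05, and the share of all genes with such a p was not taken. Anln (0.43 ± 0.19) and Cdc20 (0.36 ± 0.15) were among the larger differences that missed the adjusted threshold, with adjusted p of 0.17 and 0.155 by edgeR.

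This result depended on the GFP control as well. Against 1x GFP alone, 0 members were called in either direction with edgeR (1.18% of all genes were), 1 had an unadjusted p under 0.05, and the median difference was -0.02. Against the 4 MOI libraries, 20 members were higher with Myf5, Ccnb1, Cdk1, Plk1, Aurka and Foxm1 among them, where 18.8% of all genes were. The single call of Ckap2 was lost without the 2x Myf5 library.

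Set directly against each other, MyoD lay below Myf5 for 45 of 47 genes, with a median log2 difference of -0.29. The difference was positive for 48.9% of all genes. Of the members 3 passed the test as lower with MyoD, while 1.29% of all genes were lower. Pttg1 had 20.9 and 17.1 CPM with 1x and 2x MyoD and 25.2 and 31.0 CPM with 1x and 2x Myf5, a difference of -0.54 ± 0.12 (edgeR, adjusted p = 0.0419). Ncapg had 25.5 and 20.7 CPM against 30.1 and 33.3 CPM, a difference of -0.44 ± 0.10 (edgeR, adjusted p = 0.0394). Ckap2 had 63.3 and 53.9 CPM against 74.8 and 86.0 CPM, a difference of -0.44 ± 0.10 (edgeR, adjusted p = 0.0409). The libraries of the 2 factors did not overlap for these genes. Both MyoD values lay below both Myf5 values for 36 of 47 members and for 33.8% of all genes. The median was -0.17 without 2x MyoD and -0.47 without 1x MyoD. The 3 calls were near the threshold: edgeR made 0 without 2x MyoD, without 1x Myf5, without 2x Myf5 or with no filter on low counts, and 7 without 1x MyoD, and DESeq2 called 6. In the full fit 17 members had an unadjusted p under 0.05 by edgeR, and the share of all genes with such a p was not taken. With dose as a block the count was again 3, at a median of -0.31. The 1x and 2x labels do not stand for equal transcript levels of the 2 factors. Myod1 had 309 and 617 CPM with 1x and 2x MyoD, and Myf5 had 150 and 249 CPM with 1x and 2x Myf5. The part of these levels in the differences was not tested.

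The members stood lower at 2x than at 1x MyoD and higher at 2x than at 1x Myf5. With MyoD, 46 of 47 genes had a lower CPM at 2x than at 1x, against 55.7% of all genes, and the median ratio was 0.796. Ube2c was the exception, with a ratio of 1.45, and the other 46 ranged from 0.695 to 0.930. With Myf5, 44 of 47 had a higher CPM at 2x, against 50% of all genes, with a median ratio of 1.12 and a range of 0.947 to 1.40. Espl1, Aurkb and Kif15 were the exceptions. Both directions together held for 43 members and for 20.2% of all genes. Over all genes the median ratios were 0.978 for MyoD and 1.00 for Myf5.

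Aurka, the centrosomal Aurora kinase, showed the largest split, with 23.9 and 18.3 CPM at 1x and 2x MyoD and 21.5 and 30.1 CPM at 1x and 2x Myf5. Plk1 had 24.4 and 17.1 CPM with MyoD and 24.8 and 30.1 CPM with Myf5. At 1x the factors were close for both genes, and at 2x they lay apart. Ect2, which activates RhoA where the contractile ring forms, had 24.0 and 17.4 CPM with MyoD and 26.0 and 31.2 CPM with Myf5. Tpx2, the activator of Aurka, had 84.1 and 59.4 CPM with MyoD and 93.7 and 103 CPM with Myf5.

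Each dose had 1 library per factor, so neither dose was replicated and the test took its spread from the 4 MOI libraries, each of a different dose, assuming that the single libraries vary like them. Under that assumption 3 members passed the threshold as lower at 2x than at 1x MyoD, a share near the 5.32% of all genes: Ect2 (-0.43 ± 0.10, adjusted p = 0.0263), Plk1 (-0.48 ± 0.12, adjusted p = 0.0378) and Espl1 (-0.47 ± 0.12, adjusted p = 0.0411) by edgeR. Within Myf5, from 1 library at each dose, the median log2 difference was 0.17. It was positive for 44 of 47 members and for 52.6% of all genes. The difference between the 2 dose effects was called for 0 members by edgeR and for 0.0289% of all genes. It was negative for 46 of 47, with a median of -0.44, while 49.7% of all genes were positive. The smallest adjusted p was 0.122, for Aurka at -0.85 ± 0.15. A common dose effect over both factors was called for 0 members by edgeR and by DESeq2, 0 had an unadjusted p under 0.05, and 0.0217% of all genes were called. The opposite directions are therefore values of 4 libraries, and no single gene passed the test of the difference.

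**Figure D5:**
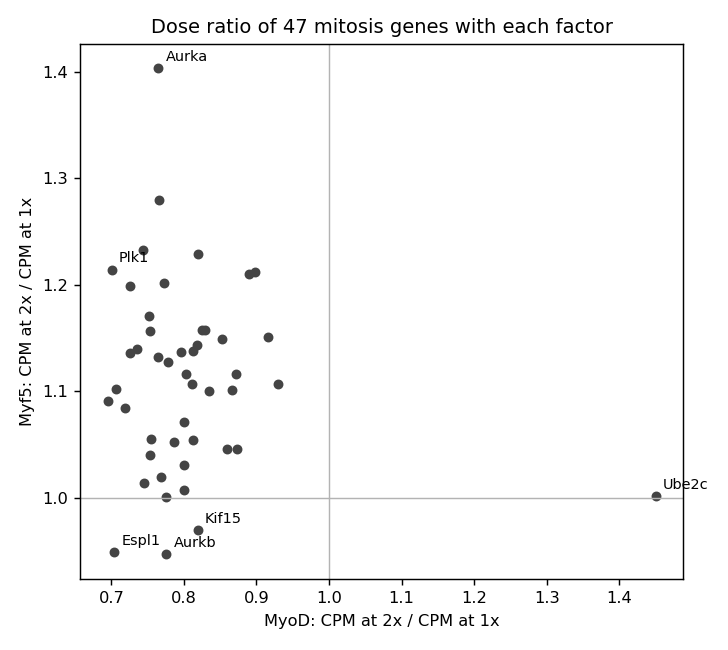
Each point is 1 of the 47 genes, with its ratio of CPM at 2x to CPM at 1x for MyoD (x axis) and for Myf5 (y axis), and lines at a ratio of 1. Most points fall in the upper left, Ube2c lies far to the right, and Espl1, Aurkb and Kif15 lie below the horizontal line.

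The second table has 1 library a condition, so no test was made. The ratio of CPM with Chimera to CPM with second-batch MyoD is given with its exact 95% binomial interval, which covers counting error only. The median ratio of Chimera to MyoD over the 47 genes was 0.820, against 0.987 over 13412 genes with at least 50 counts. The ratio was under 1 for 40 members and for 52.2% of all genes compared. The interval lay wholly under 1 for 32 members, spanned 1 for 14 and lay over 1 for Smc4 (1.10, 1.03 to 1.18). How many of all genes had an interval wholly under 1 was not counted. Past 1.5-fold, 7 members were lower and 0 higher, while 6.76% of all genes were lower by that measure.

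Ube2c had 26.9 CPM with Chimera and 57.6 CPM with MyoD, a ratio of 0.467 (0.425 to 0.513), and its neighbour Tnnc2 was at 14.4 and 42.3 CPM with totals free of mitochondrial genes. Espl1 had 5.86 and 11.1 CPM, a ratio of 0.530 (0.430 to 0.651). Cdc20 had 16.3 and 28.5 CPM, a ratio of 0.571 (0.504 to 0.647). Pttg1, the other gene of this role group, had a ratio of 0.753 (0.640 to 0.885). Cdca8, a subunit of the passenger complex, had 6.30 and 11.0 CPM, a ratio of 0.571 (0.466 to 0.699). Cep55, which acts at the final cut between daughter cells, had 3.91 and 6.71 CPM, a ratio of 0.582 (0.448 to 0.753). Ccnb2 (0.596) and Kif2c (0.623) completed the set. Cdk1 had a ratio of 0.911 (0.823 to 1.01) and Foxm1 one of 0.973 (0.872 to 1.09), so a difference in these genes was not detectable at this depth. With mitochondrial genes left out of the totals, the 47 genes summed to 982 CPM with Chimera and 1192 CPM with second-batch MyoD, both below every library of the first table. The tables were made separately, and no comparison between them was tested.

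Other cell cycle genes were read from lists beside the members. Of 66 further mitosis genes, 62 were higher without virus than with GFP, at a median of 1.19, among them Plk4 (1.27 ± 0.12), which starts centriole duplication, and Ccnf (1.33 ± 0.13). Of 40 S-phase genes, 36 were higher, at a median of 1.28, with Chaf1a (1.26 ± 0.10), a histone chaperone, and the replication clamp Pcna (1.06 ± 0.09). Of 26 transcription regulators of the cell cycle, 10 were higher, at a median of 0.35, with E2f7 at 2.19 ± 0.30. The higher share of 5.83% over all genes given above applies to these lists too. Along the MOI series 11 of the 66 mitosis genes and 2 of the 40 S-phase genes had a falling slope, against 3.42% of all genes, so the S-phase count is near the background. Against 1x GFP, 13 of 66 and 15 of 40 were lower in the MOI series (12.2% of all genes were), with the replication licensing factor Cdt1 at -0.84 ± 0.11 and the ribonucleotide reductase subunit Rrm2 at -0.82 ± 0.12.

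With MyoD, 6 of 66 further mitosis genes were lower and 3 higher than with GFP, shares below the 20.9% and 21.4% over all genes. Some regulators outside the mitosis lists differed by more than any of the 47 members. Cdkn1a, the inhibitor p21 that halts the cycle, had 347, 365, 397 and 416 CPM along the MOI series, 303 with 1x GFP, 244 without virus, 483 and 540 with 1x and 2x Myf5 and 707 and 1073 with 1x and 2x MyoD. Its slope on log2 MOI was 0.09 ± 0.02 and its difference of MyoD from GFP was 1.34 ± 0.16 (edgeR, adjusted p = 0.000396). Rb1, the retinoblastoma protein that holds E2F factors in check, differed by 2.14 ± 0.19, and E2f8, a repressor of E2F targets, by 3.28 ± 0.29. Mycl, of the same list and with a smaller p than either, differed by 6.32 ± 0.32. Cdkn2c, an inhibitor of the G1 kinases, went the other way at -1.10 ± 0.10. Of the called S-phase genes with the smallest p, Gins3 (2.52 ± 0.18), Ccne1 (1.15 ± 0.17) and Mcm7 (0.46 ± 0.07) were higher. Others of that list lay below the GFP range. Mcm6 had 76.3 to 116 CPM with GFP and 56.9 and 45.2 CPM with 1x and 2x MyoD. Pcna had 71.3 to 80.0 CPM with GFP and 61.6 and 60.1 CPM with MyoD. How many of the 40 S-phase genes were higher or lower with MyoD is not given here. Of the G1 cyclins and kinases, Ccnd3 (0.69 ± 0.12) and Cdk4 (0.24 ± 0.05) were higher and Ccnd2 (-0.27 ± 0.08) was lower. Of the further mitosis genes, Cdc25b (1.37 ± 0.11) was higher and Hjurp (-0.41 ± 0.08) and Bora (-0.48 ± 0.11) were lower. Against Myf5, MyoD had higher Rb1 (1.27 ± 0.24), Cdkn1a (0.82 ± 0.20), Mycl (1.67 ± 0.35), E2f4 (0.41 ± 0.09) and Cdc25b (0.73 ± 0.14). Cdkn2c was lower (-0.56 ± 0.11), and all of these passed edgeR's test. With Chimera, 11 of the 66 mitosis genes were lower than with second-batch MyoD past 1.5-fold and 1 was higher, and 1 of 40 S-phase genes was lower and 1 higher, while 6.76% of all genes were lower. Pkmyt1, a kinase that holds Cdk1 inactive, had a ratio of 0.419, and the Cdk1-activating phosphatase Cdc25b one of 0.498. Cenpk went the other way, with a ratio of 2.02 (1.34 to 3.11).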

How the data were processed

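Poly(A) RNA of 12 libraries was read from 2 gene count tables. The submitters' processing notes name CASAVA 1.8.2, TopHat2 2.0.8 and the build mm9. No source used here gives the counting tool, its annotation or its use of strand. The authors deposited expected counts in the first table. Counts were not whole for 1982 to 2767 genes in a library (tolerance 1e-06) and in at least 1 library for 9 members, and all were rounded. For the second table, the authors deposited counts that are whole numbers. Of 37287 gene IDs, 32610 were paired with symbols through the GENCODE vM21 names. The 37 mitochondrial genes are at 0 in the first table and hold 4.05% and 4.18% of counts in the second, and each table was analysed by itself. CPM are counts divided by the total of the library, on the usual scale. No library was a copy of another of its group: the chi-square of their counts, divided by its degrees of freedom, was 1.97 to 133.

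Genes of the first table with at least 1 CPM in at least 2 libraries were fitted with TMM in edgeR 4.0.16 (R 4.3.3). Its quasi-likelihood test (two-sided, with Benjamini-Hochberg adjustment over all genes tested and a threshold of 0.05) compared the groups with a shared spread at 6 residual degrees of freedom, and 1x GFP as a group of its own at 5. The MOI slope used the 4 MOI libraries and 2 residual degrees of freedom. The dose comparison within each factor, the 9 transduced libraries as control and the counts without Ube2c were chosen after seeing the data. The comparisons with GFP share the GFP libraries. Standard errors were derived from the F statistic. Unadjusted p under 0.05 were counted for the members only. DESeq2 1.42.0, its size factors, no filter, unrounded counts, other controls and leaving out each library were tried. Scripts were tested on simulated data. Promoter sequences came from RefSeq (GRCm38.p6). Values in every library are given for up to 4 called members with the smallest p per comparison and direction and for members with the highest CPM in their role, and other pathway genes are the called ones with the smallest p in their list (for Chimera, the largest ratios). Other members, and the S-phase genes Mcm6 and Pcna, are named for their role or as exceptions. The members and lists were chosen with earlier results of these data known.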

Additional observations from a re-analysis of the deposited data

How the results depend on the processing

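The 47 higher members without virus became 43 against 1x GFP and 45 to 47 when a library was left out. For MyoD against GFP, the count higher was 0 against 1x GFP, 2 against the 4 MOI libraries, 0 without Ube2c and 0 to 2 leaving out each library, and the count lower was 2 to 9 leaving out each library. For Myf5 against GFP, the count higher was 0 against 1x GFP, 20 against the 4 MOI libraries and 0 to 20 leaving out each library, with 20 where 1x GFP was left out. For MyoD against Myf5, the count lower was 6 with DESeq2, 0 with no filter and 0 to 7 leaving out each library. For the MOI trend, the count lower was 7 with DESeq2 and 0 to 23 leaving out each library. For the MOI series against 1x GFP it was 2 to 10. For 2x against 1x, 3 members were lower within MyoD and 0 with a common effect. The causes were not tested, and the share of all genes called was not taken where a library was left out. DESeq2's size factors and unrounded counts left every one of these counts within 1.5 times its value, and no called value changed sign under the settings tried. The median difference for Myf5 was 0.23 against all GFP and -0.02 against 1x GFP, and the median common dose effect was -0.07, 0.17 without the 1x MyoD library and -0.28 without the 1x Myf5 library. The Chimera count stayed at 7 under both other scalings, with a median ratio of 0.819 to 0.823. No paired analysis was possible because the labels give no replicate numbers; dose as a block gave 3 lower for MyoD against Myf5. Where 1 library remained in a group, it was assumed to vary like the others. The MOI libraries, with the lowest depth of the first table, limit what the trend can show.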
